A study of Homo sapiens with 10 samples.

Results

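The transcriptomes of MCF10A cells transduced with a YAP vector were set against those of MCF10A cells transduced with a TRAM2 vector. MCF10A is an immortalised, non-tumorigenic human mammary epithelial line. The members were chosen by sample title, which gave 2 YAP libraries, A and B, and 4 TRAM2 libraries, A to D, so 6 of the 10 libraries of the series. The other 4 libraries came from cells with an empty vector and entered no test. They are quoted only as a range of levels beside the genes that matter most. All groups were grown in the same medium, with horse serum, EGF, insulin and hydrocortisone, were selected with an antibiotic as populations, and were harvested at the same range of confluency. Polyadenylated RNA was sequenced. According to the study's methods the YAP cells expressed YAP5SA, a form of YAP with serines replaced so that the LATS kinases cannot phosphorylate them. YAP5SA and the TRAM2 open reading frame were carried by different lentiviral backbones with different promoters and selection markers, so the insert and its backbone cannot be told apart. The labels do not say whether the libraries of a group came from separate cultures, so the p-values measure the spread between these libraries, which may be technical.

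YAP is the transcriptional co-activator at the end of the Hippo pathway. When the upstream kinases MST1/2 and LATS1/2 are off, YAP and its paralogue TAZ (gene WWTR1) enter the nucleus, bind TEAD factors and switch on genes for growth, matrix and cytoskeleton. TRAM2 belongs to the translocon of the endoplasmic reticulum, the channel through which secreted proteins such as collagens enter the secretory pathway. TRAM2 mRNA is itself raised in the YAP cells. Because it is raised in both groups, the comparison sets the YAP cells against cells in which TRAM2 alone was raised. A difference also holds any departure of the TRAM2 cells from the control cells, so it is not a measure of the YAP cells against control. FSTL1, the third gene the comparison turns on, encodes a secreted glycoprotein.

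The vector genes were examined first, as a check of the labels. TRAM2 (GRCh37 chr6:52362206-52441858, minus strand) was measured at 389, 610, 249 and 458 CPM in TRAM2 libraries A to D, where CPM are counts scaled to the normalised size of each library, and at 241 and 247 CPM in YAP libraries A and B. Every one of these values was far above the 26.7 to 30.6 CPM of the empty-vector libraries, and the groups did not overlap, although TRAM2 C lay just above both YAP libraries. The YAP to TRAM2 difference was a log2 fold change of −0.81 ± 0.40 (SE; 95% interval −1.88 to 0.27) and did not pass the test (edgeR quasi-likelihood, adjusted p = 0.17). Among the libraries with the same run number as the YAP libraries, TRAM2 A and B, called the shared run, it was −1.03 with an adjusted p of 0.0238, and it also passed without TRAM2 C (−1.03). The TRAM2 vector held only the open reading frame, while the single annotated transcript to which TRAM2 counts were assigned is 7047 bases long, so a level of the vector mRNA cannot be read from these counts directly.

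YAP1 (GRCh37 chr11:101981178-102104155, plus strand) stood at 180, 196, 184 and 185 CPM in the TRAM2 libraries and at 336 and 341 CPM in the YAP libraries, against 183 to 190 CPM in the control libraries. It was higher in the YAP cells by a log2 fold change of 0.86 ± 0.05 (adjusted p = 8.8e-09), and the TRAM2 libraries lay around the control range. The excess sat on 1 short coding transcript of 1490 bases, YAP1-208, which took 62.6% and 65.3% of the estimated YAP1 counts in the YAP libraries and 26.7% to 30.7% in the TRAM2 libraries. The long transcript YAP1-201, of 5401 bases, held 1173 and 1137 estimated counts in the YAP libraries against 1250 to 1619 in the TRAM2 libraries. With counts scaled by effective transcript length the YAP1 difference was 1.22.

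FSTL1 (GRCh37 chr3:120111140-120169863, minus strand) was measured at 164, 203, 179 and 164 CPM in the TRAM2 libraries, all slightly above the 154 to 163 CPM of the control libraries, and at 917 and 905 CPM in the YAP libraries. The log2 fold change was 2.36 ± 0.08 (adjusted p = 2e-09) over the 6 libraries and 2.31 within the shared run. TRAM2 C, whose TRAM2 mRNA was closest to that of the YAP libraries, held 179 CPM of FSTL1. P3H1, which hydroxylates prolines of collagen in the endoplasmic reticulum, was also higher in the YAP libraries. It stood at 12.6 to 15.9 CPM in the TRAM2 libraries and 40.3 and 40.2 CPM in the YAP libraries (1.55 ± 0.09). TRAM2 A, C and D lay within the P3H1 control range of 11.1 to 13.7 CPM.

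**Figure D1:**
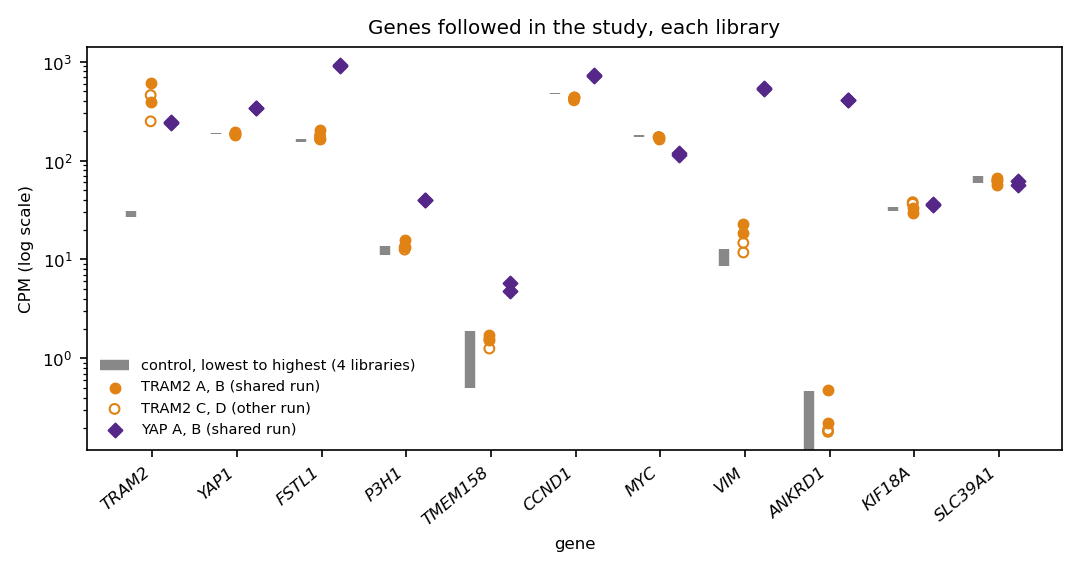
Level of the genes the study centred on, in CPM on a log axis, with 1 point for each TRAM2 library (A to D) and YAP library (A and B) and a bar from the lowest to the highest of the 4 empty-vector libraries. TRAM2 is above the control bar in all 6 libraries, whereas FSTL1, VIM and ANKRD1 are above it by a wide margin in the YAP libraries (917 and 905 CPM for FSTL1); the control bar of ANKRD1 runs off the axis because its lowest control value is 0.

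Among the other genes followed in the study, VIM, the intermediate filament protein of mesenchymal cells, was 22.8, 18.4, 11.8 and 14.7 CPM in the TRAM2 libraries and 526 and 546 CPM in the YAP libraries (log2 fold change 5.00 ± 0.21). TRAM2 A, B and D were above the control range of 8.57 to 12.8 CPM, and within the shared run the VIM difference was 4.71. The G1 cyclin gene CCND1 was higher by 0.77 ± 0.05 and MYC was lower by 0.55 ± 0.05. KIF18A, a mitotic kinesin (0.08, adjusted p = 0.53), and SLC39A1, a zinc importer (−0.07, adjusted p = 0.49), were not called. TMEM158 was higher by 1.80 ± 0.22, at a level of 4.77 and 5.79 CPM against 1.26 to 1.71 CPM.

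The 2 vectors gave widely different transcriptomes. Of 15407 genes tested, 2317 (15%) were higher and 2212 (14.4%) were lower in the YAP cells, called at an adjusted p under 0.05 with a log2 fold change beyond 0.5 in either direction, which makes 29.4% called in all. A change of more than 2-fold was called for 1202 of the higher and 1248 of the lower genes. For 5799 genes (37.6%) the 95% interval of the log2 fold change lay within −0.5 to 0.5, and 5079 genes were in neither class. The median log2 fold change of all genes was 0.00, which TMM normalisation largely sets. The counts of each gene list below are to be read against the 15% higher and 14.4% lower of all genes. At an unadjusted p under 0.05 in edgeR, 8539 of the 15407 genes differed in either direction. List counts at an unadjusted p are to be read against that number. On the first principal component, which held 76.8% of the variance, the YAP libraries lay at 94.4 and 95.4 and the TRAM2 libraries between −50.7 and −42.8. The groups' CPM did not overlap for 4508 of the 4529 called genes, against 62.7% of all genes tested.

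The 6 libraries held 12477031 to 16314438 estimated counts each. The TRAM2 libraries differed among themselves by more than counting noise, with a chi-square per degree of freedom of 1.89 to 6.28 over whole-count genes, and the YAP libraries by 1.21. Control A and C differed by no more than counting noise (1.02) and may be 1 library deposited under both run numbers, so the control ranges stand for fewer than 4 independent samples. TRAM2 A and B and both YAP libraries carry the same run number in the deposited data names, and TRAM2 C and D carry another; what the number stands for is not given in the labels. Where TRAM2 C and D are set against the YAP libraries, group and run therefore cannot be told apart.

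Within the shared run alone, with 2 libraries a group, 3983 of 14886 genes were called (26.8%), 2070 higher and 1913 lower. Of the 4529 calls of the 6 libraries, 3824 (84.4%) were also called there in the same direction, and these made up 96% of the calls of that fit. No called gene had the opposite sign there. Of the calls, 93 could not be tested there because their counts were too low. Both fits share the same YAP libraries and 2 TRAM2 libraries, so this repeat is not an independent replicate.

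**Figure D2:**
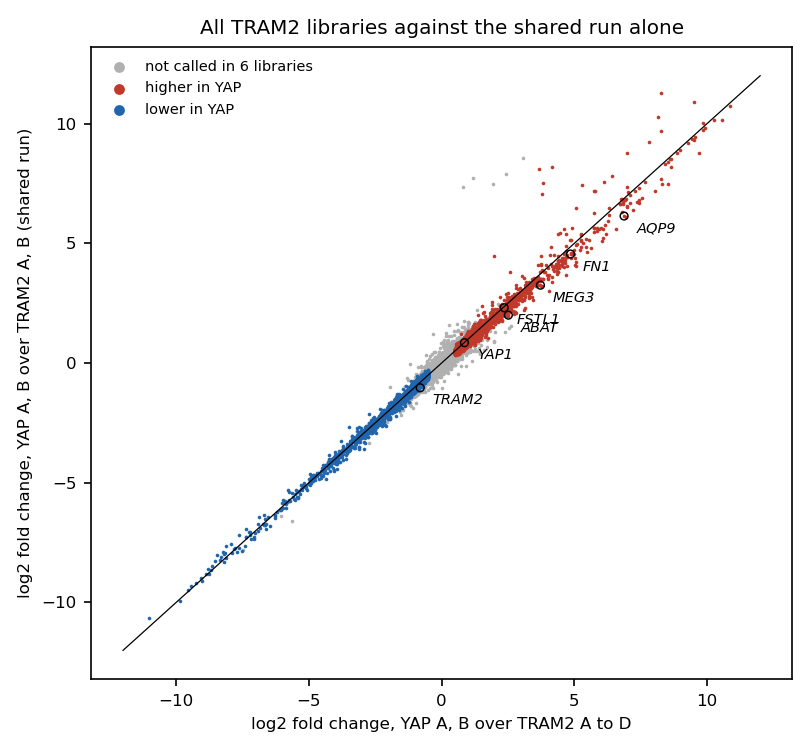
Log2 fold change of YAP against TRAM2 over the 6 libraries (x axis) and within the shared run alone (y axis), 1 point a gene, with the genes called over the 6 libraries coloured by direction. The points lie along the diagonal, and 3824 of the 4529 called genes are also called within the shared run in the same direction.

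The widest differences were between mRNA that was at or near 0 in one group and well measured in the other. ADAMTS12, a secreted metalloprotease of the matrix, rose from 0.181 to 0.297 CPM in the TRAM2 libraries to 182 and 190 CPM in the YAP libraries (log2 fold change 9.50 ± 0.10). With 15 counts of ADAMTS12 over the TRAM2 libraries, that SE is too small. STXBP6, an inhibitor of SNARE-dependent exocytosis, stood at 0 to 0.189 CPM against 83.2 and 83.7 CPM. Several genes had no count in any TRAM2 library, so that only a lower bound could be given, computed against 3 counts over the whole group. ZNF385B, a zinc finger gene, was at least 326-fold higher in the YAP cells, with 15.7 and 16.7 CPM. KISS1, which encodes the secreted peptide kisspeptin, was at least 170-fold higher, and the lysophosphatidic acid receptor gene LPAR1 at least 162-fold higher. VSTM1 and KPRP, the latter a keratinocyte proline-rich protein, were at least 133-fold and 124-fold higher. The pregnancy-specific glycoprotein gene PSG5 had 2 counts in the TRAM2 libraries and 868 in the YAP libraries, a ratio of 1055 (95% interval from counting error 291 to 8722), and EDIL3, a secreted integrin ligand, had 1 against 455 counts, a ratio of 1106 (197 to 43760). AC008878.3 and TBC1D3C, also at 0 in the TRAM2 libraries, reached 5.29 and 3.76 CPM in single control libraries, and TBC1D3C has near-identical copies between which reads may be split, so both are uncertain.

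In the opposite direction SULT1E1, which sulfates and so inactivates oestrogens, was measured at 19.2, 11.2, 18.8 and 23.4 CPM in the TRAM2 libraries and at 0 counts in both YAP libraries, at least 151-fold lower. TCN1, a secreted vitamin B12 carrier, was at least 66.4-fold lower, and AKR1B10, an aldo-keto reductase, at least 44.5-fold lower. AZGP1, a secreted zinc-binding glycoprotein, fell from 39.6 to 65.9 CPM to 0.168 and 0.0772 CPM, 3 counts in all, against 82.8 to 90.1 CPM in the control libraries. PADI4, which converts arginine in proteins to citrulline, had 2 counts in the YAP libraries against 18.6 to 40 CPM in the TRAM2 libraries, and the lipase-related PNLIPRP3 had 3 counts against 34.8 to 46.1 CPM. UNC5B, a netrin receptor, was lower by 7.35 ± 0.24.

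**Figure D3:**
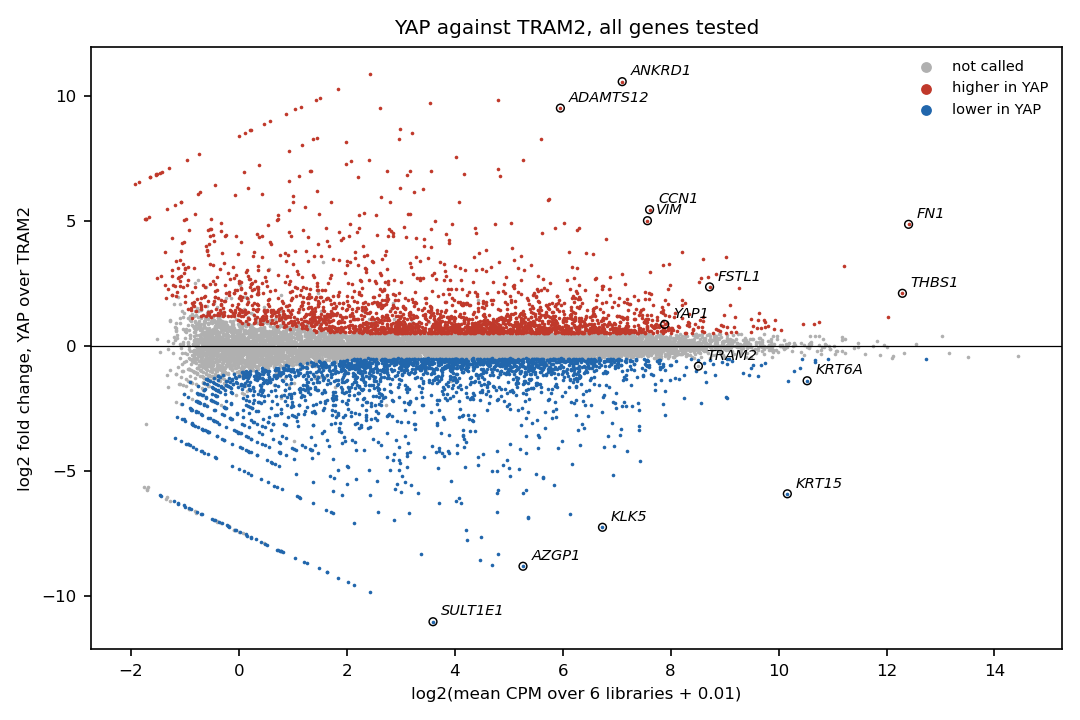
Log2 fold change of YAP against TRAM2 (y axis) over the log2 of the mean CPM of the 6 libraries (x axis), 1 point a gene, with called genes coloured by direction and named examples. The 2317 higher and 2212 lower genes lie on both sides of 0 at all levels, with FN1 and KRT15 far from 0 among the genes of high level; the straight lines of points at the left are genes with no or few counts in 1 group.

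Promoters of 5 genes are shown, which differ in the short motifs of TEAD, AP-1 and zinc finger E-box factors. Those of ANKRD1 and CCN2 were planned, and NUAK2, FSTL1 and SPRR1B were added later. All 3 target promoters shown hold the TEAD core, which only 6 of the 16 matched promoters of the target list held. The sequences are the 250 bases before the annotated start, from RefSeq (GRCh38.p14), written 5′ to 3′ on the strand of the gene. Capitals mark GGAATG, the core bound by TEAD factors, TGANTCA, bound by AP-1, and CACCTG, the E-box bound by ZEB and SNAI factors, each on either strand. ANKRD1 (chr10:90921088-90921337, minus strand), CCN2 (chr6:131951373-131951622, minus strand) and NUAK2 (chr1:205321746-205321995, minus strand) are targets of YAP and TAZ, FSTL1 (chr3:120450993-120451242, minus strand) is a marker of the comparison, and SPRR1B (chr1:153030953-153031202, plus strand) is a gene without counts in the YAP cells.
ANKRD1: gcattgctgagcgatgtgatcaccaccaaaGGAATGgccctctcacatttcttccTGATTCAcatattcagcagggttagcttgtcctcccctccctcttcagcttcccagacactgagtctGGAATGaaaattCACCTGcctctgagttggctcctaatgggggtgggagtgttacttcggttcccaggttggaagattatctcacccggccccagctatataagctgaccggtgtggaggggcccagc
CCN2: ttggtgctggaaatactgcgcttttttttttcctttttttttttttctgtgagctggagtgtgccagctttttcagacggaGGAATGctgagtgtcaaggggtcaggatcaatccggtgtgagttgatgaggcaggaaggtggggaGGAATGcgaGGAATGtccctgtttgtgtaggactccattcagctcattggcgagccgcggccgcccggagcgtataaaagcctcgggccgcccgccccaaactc
NUAK2: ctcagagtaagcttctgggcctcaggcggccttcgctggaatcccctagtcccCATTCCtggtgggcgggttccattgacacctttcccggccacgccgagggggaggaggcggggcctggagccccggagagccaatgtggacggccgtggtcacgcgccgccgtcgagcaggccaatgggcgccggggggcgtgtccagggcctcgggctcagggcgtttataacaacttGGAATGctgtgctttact
FSTL1: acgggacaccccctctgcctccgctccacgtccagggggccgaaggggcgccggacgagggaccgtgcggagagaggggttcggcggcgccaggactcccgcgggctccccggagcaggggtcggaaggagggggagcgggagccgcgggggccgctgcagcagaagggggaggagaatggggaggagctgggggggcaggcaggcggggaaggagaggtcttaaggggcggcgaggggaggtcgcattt
SPRR1B: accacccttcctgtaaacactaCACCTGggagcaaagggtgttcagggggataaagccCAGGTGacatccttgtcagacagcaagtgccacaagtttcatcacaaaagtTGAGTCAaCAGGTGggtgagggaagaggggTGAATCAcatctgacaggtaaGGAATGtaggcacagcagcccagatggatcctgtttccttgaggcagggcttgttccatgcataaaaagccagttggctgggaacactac
In the ANKRD1 window 2 TEAD cores, 1 AP-1 motif and 1 E-box were found, in the CCN2 window 3 TEAD cores, 2 of which lie 9 bases apart, and in the NUAK2 window 2 TEAD cores, 1 of them on the opposite strand. FSTL1 held none of the motifs. SPRR1B, which had no counts in the YAP cells, held 1 TEAD core, 2 AP-1 motifs and 3 E-boxes, so the TEAD core alone did not mark the genes that were higher.

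A RefSeq promoter could be matched for 10250 of 15394 tested gene symbols, and GGAATG stood in 9.45% of these windows. It stood in 12.3% of the 1654 windows of genes called higher and in 8.57% of the 1470 windows of genes called lower. Of the 16 matched promoters of the YAP and TAZ target list 6 held it (37.5%), those of CCN2, ANKRD1, NUAK2, PTPN14, TGFB2 and FOXF2. The AP-1 motif was found in 4.13% of all windows, 4.17% of the higher and 5.65% of the lower genes. The E-box was found in 16% of all windows, 14.8% of the higher genes and 21.2% of the lower genes, and in 24.6% of the windows of genes more than 2-fold lower. These shares are descriptions of short windows, in which a motif is not necessarily a bound site.

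The YAP and TAZ target genes were higher in the YAP cells as a group. Of 22 members tested, 18 were higher and 0 lower in the edgeR test (81.8%, against 15% of all genes called higher), with a median log2 fold change of 1.67 against 0.00 over all genes. At an unadjusted p under 0.05, 20 were higher and 0 lower, and DESeq2 called 18 higher and 0 lower. The list was chosen with earlier results of these data known, so its direction is not independent evidence. ANKRD1, a nuclear and sarcomeric ankyrin repeat protein, was measured at 0.223, 0.482, 0.181 and 0.189 CPM in the TRAM2 libraries and at 412 and 411 CPM in the YAP libraries (10.56 ± 0.11, adjusted p = 2.1e-15). With 16 counts over the TRAM2 libraries, that SE is smaller than counting error allows. The matricellular CCN1 was at 17, 13.9, 11.8 and 9.3 CPM against 562 and 558 CPM (5.44 ± 0.17). Its relative CCN2 was at 6.16 to 10.7 CPM against 212 and 226 CPM (4.71). All TRAM2 libraries lay in or close to the control ranges of 0 to 0.47 CPM for ANKRD1, 11.3 to 16.4 CPM for CCN1 and 7.73 to 9.4 CPM for CCN2. IGFBP3, a carrier of insulin-like growth factors, was higher by 3.55 ± 0.05 and the receptor tyrosine kinase gene AXL by 2.43 ± 0.10. The members not called were F3 (0.29), DOCK5 (0.49), FOXF2 (0.04) and MYOF (−0.07), so the target genes did not move as one. CCN2, F3, DOCK5, FOXF2 and MYOF were picked out after their values were seen, as were the other list members named below with a value and no error.

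Genes of the Hippo pathway itself were also measured. Of 29 genes for kinases, scaffolds, TEAD factors and their cofactors, 17 were higher and 2 lower, against 15% and 14.4% of all genes, with a median of 0.79. WWTR1, the gene of TAZ, was measured at 115, 122, 116 and 121 CPM in the TRAM2 libraries and at 50.9 and 50.4 CPM in the YAP libraries (−1.23 ± 0.06), so the paralogue of YAP was lower where YAP was raised. Of the TEAD genes, TEAD1 (1.85) and TEAD4 (0.65) were higher and TEAD2 was lower (−0.75 ± 0.16), while TEAD3 was not called (0.39). Among inhibitors of YAP, the kinase gene LATS2 (1.63), the scaffold genes AMOTL2 (2.74) and NF2 (1.21), and FAT4, an atypical cadherin (3.91 ± 0.10), were higher, and LATS1 (0.06) and SAV1 (0.13) were not called. VGLL1, a TEAD cofactor, was higher by 3.15 ± 0.16. The members LATS2, AMOTL2, PTPN14 and AJUBA, are also in the target list.

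AP-1 factors, which often share enhancers with TEAD, were split. Of 10 tested, 3 were higher and 2 lower. FOS was measured at 19.9, 25.6, 21.7 and 20.1 CPM in the TRAM2 libraries and at 1.17 and 1.08 CPM in the YAP libraries (−4.27 ± 0.20), and JUNB was lower by 1.51 ± 0.13. FOSL2 (0.55 ± 0.05), MAFF (0.67 ± 0.09) and BATF3 (1.25) were higher, whereas FOSL1 (0.00), JUN (0.11) and JUND (−0.05) were not called.

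The secretory machinery is the group to which TRAM2 belongs. Of 35 genes of the translocon, signal recognition, signal peptidase and oligosaccharyltransferase, 6 were higher (17.1%, near the 15% of all genes) and 0 lower, and for 22 the interval lay within −0.5 to 0.5. At an unadjusted p under 0.05 edgeR gave 18 higher and 5 lower, against 8539 of all 15407 genes in either direction. DESeq2 called 6 and 0. SSR3, a subunit of the translocon-associated TRAP complex, was at 149 to 177 CPM in the TRAM2 libraries and 571 and 562 CPM in the YAP libraries (1.83 ± 0.06). TRAM1, the paralogue of TRAM2, was at 119 to 142 CPM against 306 and 307 CPM (1.23 ± 0.06). SEC62 (0.58), SEC61G (0.53), OSTC (0.53) and SEC61A2 (0.81) were called with smaller differences, and the channel subunit genes SEC61A1 (0.49) and SEC61B (0.47) fell just short of the threshold. Within the shared run, 4 of the list were called. Of 22 genes of the unfolded protein response, which is set off by misfolded proteins in the endoplasmic reticulum, 4 were higher and 2 lower, 27.3% called against 29.4% of all genes. The phosphatase regulator PPP1R15A (1.11 ± 0.11) and the chaperone DNAJB9 (1.07 ± 0.15) were higher and the pseudokinase TRIB3 was lower (−1.23 ± 0.12). ASNS was lower by 0.57 ± 0.12 and was not called within the shared run (−0.41).

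Enzymes that modify collagen act on the chains inside the endoplasmic reticulum and in the matrix. Of 20 tested, 9 were higher and 1 was lower, against 15% and 14.4% of all genes, with a median of 0.48. The lysyl hydroxylase gene PLOD2 was measured at 107, 124, 106 and 97.9 CPM in the TRAM2 libraries and at 525 and 533 CPM in the YAP libraries (2.28 ± 0.07). The prolyl 3-hydroxylase genes were divided, with P3H3 higher (3.81 ± 0.18) beside P3H1, and P3H2 lower (−1.09 ± 0.10), from 86.6 to 110 CPM to 46.7 and 49.5 CPM. The control range of P3H2 was 136 to 141 CPM, above the TRAM2 libraries. P4HB (0.68), CRTAP (0.57) and the crosslinking enzymes LOX (1.25), LOXL1 (2.24) and LOXL2 (2.11) were higher. SERPINH1, the collagen chaperone (0.02), and PPIB (0.10) were not called.

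Collagen chains themselves split by type. Of 15 tested, 5 were higher and 6 lower. COL12A1, a fibril-associated collagen, was at 74.4, 90.8, 97.5 and 90.5 CPM in the TRAM2 libraries and at 979 and 983 CPM in the YAP libraries (3.47 ± 0.08), and COL8A1 was higher by 3.24 ± 0.08. The basement membrane chains COL4A1 (1.98) and COL4A2 (1.65) were higher. COL7A1, which forms anchoring fibrils, fell by 3.58 on the log2 scale (SE 0.14), and COL17A1, of hemidesmosomes, fell by 1.18 (SE 0.10). The fibrillar chain COL1A1 was at 2.59 to 3.27 CPM against 0.921 and 0.618 CPM (−1.98).

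Matrix glycoproteins took up a larger share of the mRNA of the YAP cells. The 19 members of the list took 2.70% and 2.68% of all counts in the YAP libraries and 0.405% to 0.457% in the TRAM2 libraries. Most of the share in YAP A and B was FN1 (1.458% and 1.459%) and THBS1 (0.989% and 0.977%). Of the 13 tested, 9 were higher and 1 was lower, with a median of 2.29. Fibronectin (FN1) was measured at 635, 667, 406 and 400 CPM in the TRAM2 libraries, and at 15240 and 15279 CPM in the YAP libraries, against 352 to 365 CPM in the controls (4.86 ± 0.28). TRAM2 A and B were above TRAM2 C and D, and within the shared run the FN1 difference was 4.55. Thrombospondin 1 (THBS1) was at 2285 to 2490 CPM against 10336 and 10226 CPM (2.10 ± 0.05), and MFAP5, of elastic microfibrils, at 1.51 to 3.86 CPM against 157 and 154 CPM (5.86 ± 0.16). Fibrillin 1 (FBN1, 2.29), periostin (POSTN, 3.74) and the basement membrane protein NID2 (4.42) were also higher. TNC, tenascin C, was the exception, at 66.8, 53.5, 60.9 and 55.8 CPM against 1.01 and 1.16 CPM (−5.76 ± 0.17). Among 9 laminin chains, LAMA1 (2.92 ± 0.25) and LAMC1 (1.04 ± 0.05) were higher and LAMA4 was lower (−3.93 ± 0.26). LAMA4 stood at 39.4 to 55.8 CPM in the TRAM2 libraries, above the control range of 26.1 to 32.4 CPM.

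**Figure D4:**
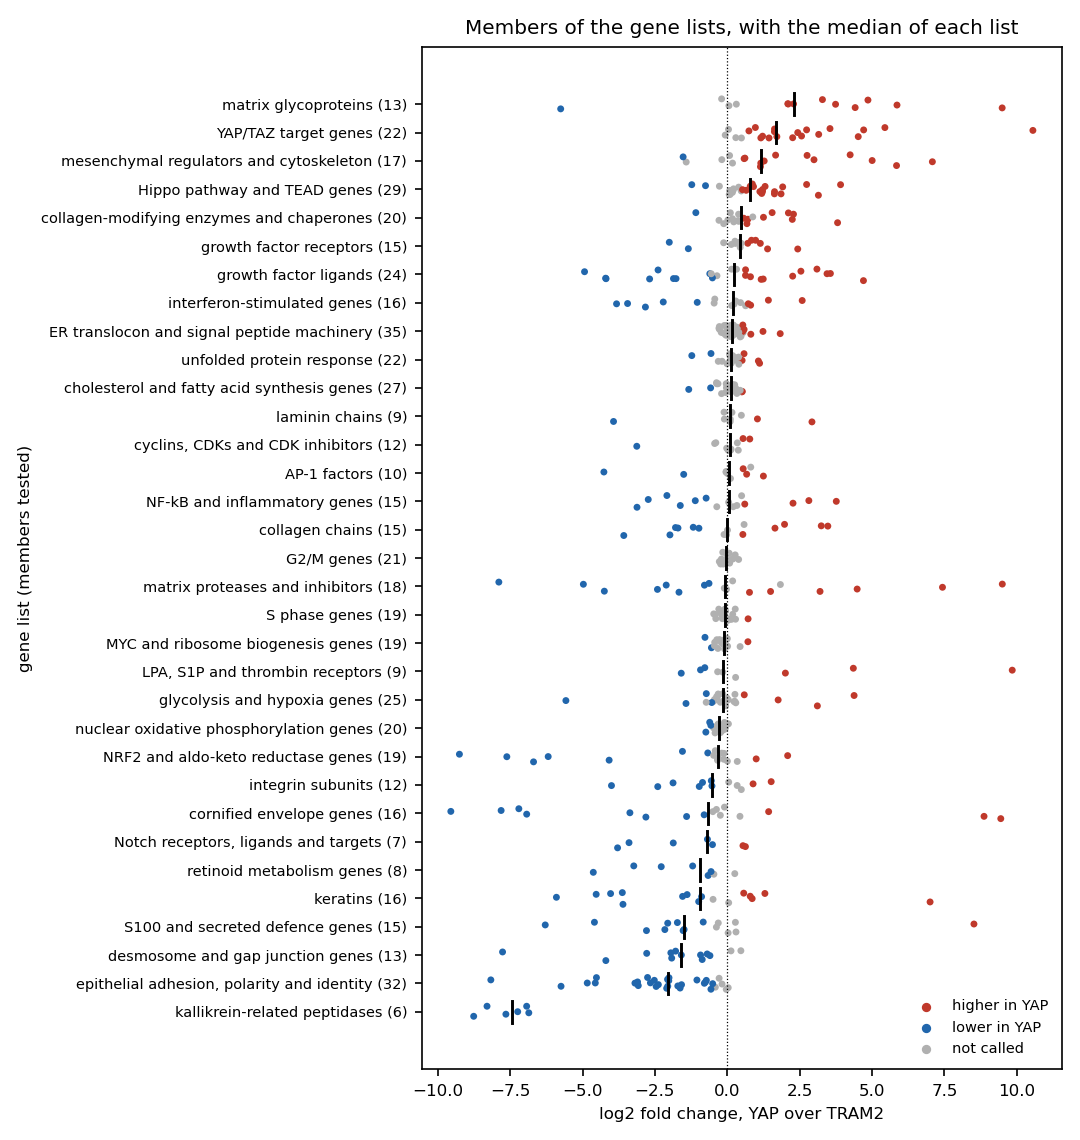
Log2 fold change of YAP against TRAM2 (x axis) for the tested members of each gene list (rows), 1 point a gene, coloured by call, with the median of each list as a bar. The YAP and TAZ target genes and matrix glycoproteins lie mostly to the right of 0 and the epithelial and desmosome genes to the left, while the points of the S phase and G2/M genes sit close to 0.

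Integrins, the receptors of these matrix proteins, were mostly lower. Of 12 tested, 2 were higher and 7 lower, with a median of −0.54. ITGB1, the common beta chain, was higher by 0.89 ± 0.05 and ITGA1, a collagen receptor chain, by 1.51 ± 0.09. ITGB8 was at 170 to 185 CPM in the TRAM2 libraries and at 11.6 and 10.7 CPM in the YAP libraries (−4.0 ± 0.08), ITGB6 was lower by 2.40 (SE 0.13 on the log2 scale), and the hemidesmosome chain ITGB4 was lower with a smaller difference (−0.55 ± 0.08). Of 18 matrix proteases and inhibitors, 6 were higher and 8 lower. The metalloprotease gene ADAMTS1 was at 0 to 0.223 CPM in the TRAM2 libraries and at 16.6 and 15.1 CPM in the YAP libraries (7.43 ± 0.32). The gelatinase MMP2 (−4.97 ± 0.32) and MMP28 (−4.25 ± 0.21) were lower, so secreted proteases moved in both directions.

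Mesenchymal and epithelial genes moved apart. Of 17 mesenchymal regulators and cytoskeletal genes, 12 were higher and 1 was lower, with a median of 1.16. CDH2, N-cadherin, was at 0.817, 0.758, 0.301 and 0.566 CPM in the TRAM2 libraries and at 83 and 80.9 CPM in the YAP libraries (7.08 ± 0.14). TAGLN, the smooth muscle protein transgelin, was at 1.7 to 3.79 CPM against 152 and 154 CPM (5.85 ± 0.14). The transcription factor gene ZEB1 was at 5.72 to 9.21 CPM against 55.7 and 58.2 CPM (2.99), and ZEB2 (1.27) and SNAI2 (0.58) were higher, whereas SNAI1 (−1.42, adjusted p = 0.073), TWIST1 (0.18) and TWIST2 (−0.19) were not called. Contractile genes TPM1 (2.75), MYL9 (4.24) and CALD1 (1.14) were higher. S100A4, often used as a fibroblast marker, was lower (−1.53 ± 0.22).

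Of 32 genes for epithelial adhesion, polarity and identity, 0 were higher and 27 lower (84.4%, against 14.4% of all genes), with a median of −2.04. At an unadjusted p under 0.05 edgeR gave 0 higher and 28 lower, and DESeq2 called 0 and 27. CDH1, E-cadherin, was measured at 379, 434, 394 and 422 CPM in the TRAM2 libraries and at 92.8 and 102 CPM in the YAP libraries (−2.07). The TRAM2 values overlapped the control range of 369 to 394 CPM. EHF, an epithelial ETS factor, was at 39.1 to 42.4 CPM against 0.419 and 1.08 CPM (−5.75 ± 0.18). The tight junction gene CLDN7 was at 25 to 30 CPM against 0.921 and 0.927 CPM (−4.84 ± 0.18). EPCAM (−2.66), the splicing factor gene ESRP1 (−2.46), ELF3 (−4.56) and OVOL2 (−2.02) were lower, and CLDN1 (−0.04), TFAP2A (0.03), F11R (−0.41), PARD6B (−0.18) and PRSS8 (−0.29) were not called. Of 13 desmosome and gap junction genes, 0 were higher and 11 lower in edgeR (2 and 11 at an unadjusted p under 0.05; 0 and 10 called by DESeq2). DSG3, a desmosomal cadherin, was at 201 to 227 CPM against 12.1 and 11.2 CPM (−4.20 ± 0.08). GJB2, which encodes the gap junction protein connexin 26, had 3 counts in the YAP libraries against 26.7 to 29 CPM in the TRAM2 libraries.

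**Figure D5:**
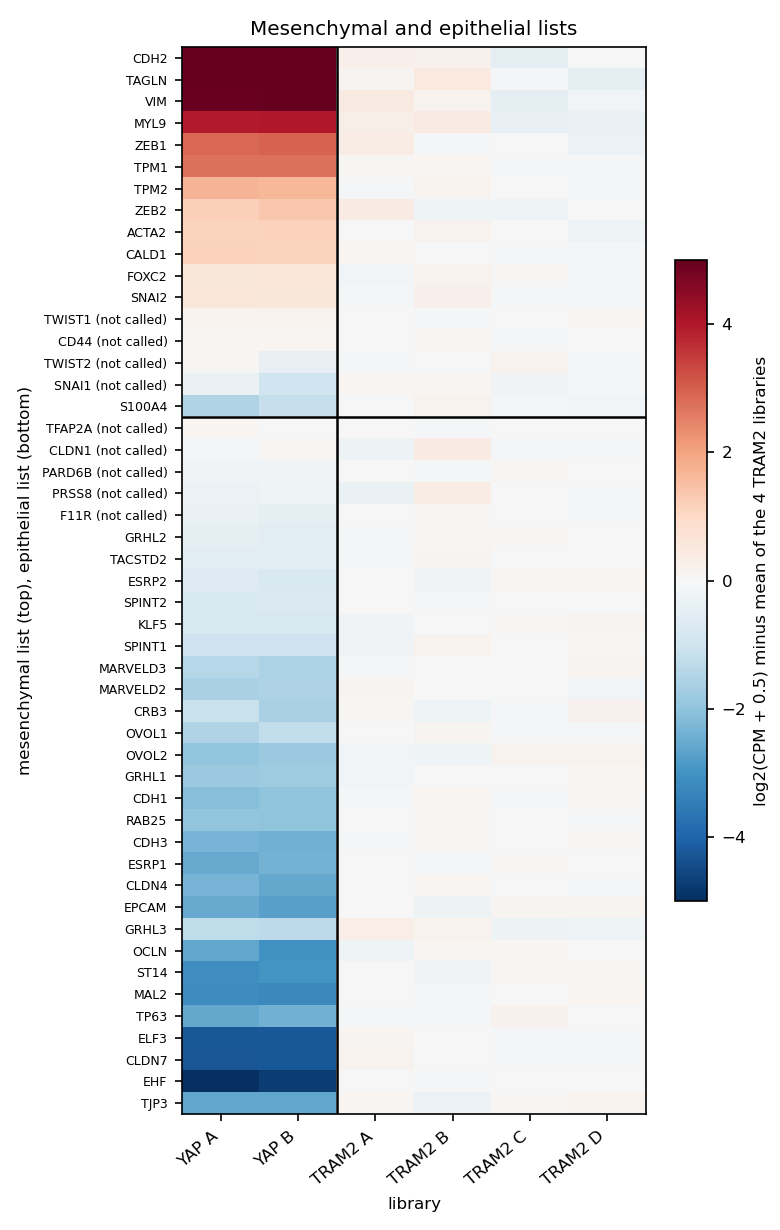
Level of mesenchymal and epithelial genes (rows) in each of the 6 libraries (columns), coloured as the log2 difference from the mean of the 4 TRAM2 libraries, with colours saturated at −5 and 5. The YAP columns are high for VIM, CDH2 and TAGLN and low for CDH1, CLDN7 and EHF, and TRAM2 A and B differ only slightly from TRAM2 C and D beside that contrast.

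Keratins were reordered. Of 16 tested, 5 were higher and 9 lower. KRT15, a keratin of basal cells, was at 1787, 1533, 1645 and 1855 CPM in the TRAM2 libraries and at 27.2 and 29.6 CPM in the YAP libraries (−5.91 ± 0.11). KRT5, the major basal keratin, was lower by 0.89 (SE 0.06 on the log2 scale), and KRT6A, KRT6B and KRT81, whose reads may be shared with near-identical paralogues, were lower too. KRT8, of simple epithelia, was higher by 0.86 ± 0.06, and KRT4 went from 0.0629 to 0.362 CPM to 27 and 26.2 CPM (7.0 ± 0.24). KRT17 was higher by 0.79 ± 0.21, with TRAM2 B at 347 CPM and the other TRAM2 libraries at 224 to 248 CPM. Keratins together took 0.926% and 0.935% of counts in the YAP libraries and 1.24% to 1.38% in the TRAM2 libraries.

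Genes of the cornified envelope, the shell of terminally differentiated keratinocytes, were called higher for 3 and lower for 8 of 16. Of the 16, 6 had no count in 1 of the groups. Those 6 passed the filter on low counts only through the other group, so their direction is no separate finding. PPL, periplakin, was at 220 to 271 CPM against 23.5 CPM in both YAP libraries (−3.37 ± 0.09), and SPRR1B was at least 54.7-fold lower. Involucrin (IVL) was higher, at 37.2, 44.9, 21.7 and 21 CPM against 83.9 and 82.6 CPM (1.43 ± 0.36, adjusted p = 0.03). TRAM2 A and B were above the control range of 21.3 to 23.1 CPM, and the IVL difference within the shared run was 1.02. The kallikrein-related peptidase genes KLK5 to KLK10 lie side by side on chromosome 19. They passed the filter on low counts through the TRAM2 libraries, so that all 6 were lower is no separate finding, and the other 4 genes of the list were too low to test. The list took 0.000199% and 0.000163% of counts in the YAP libraries against 0.0255% to 0.0348% in the TRAM2 libraries. KLK7, which cleaves the bonds between shed keratinocytes, had 2 counts in the YAP libraries and 31.7 to 46.9 CPM in the TRAM2 libraries. Of 15 S100 and secreted defence genes, 1 was higher and 9 lower, among them S100A14, at 238 to 264 CPM against 11.6 and 9.35 CPM (−4.59 ± 0.09), and S100A9 (−2.79 ± 0.27). The 1 higher gene was the beta-defensin gene DEFB103B (25.6 and 29.5 CPM), which has a near-identical copy.

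Secreted signals moved in both directions. Of 24 growth factor ligands, 11 were higher and 9 lower. WNT5B was at 1.51 to 2.89 CPM in the TRAM2 libraries and at 56.5 and 59.5 CPM in the YAP libraries (4.70 ± 0.13), and NRG1, a ligand of ERBB3, was higher by 3.44 ± 0.12. TGFB2 (2.26), BMP4 (2.54) and WNT5A (3.09) were also higher. EREG, an EGF receptor ligand, was at 36.7 to 44 CPM against 2.43 and 1.93 CPM (−4.20 ± 0.15), and FGFBP1, which carries fibroblast growth factors, was lower (−4.93 ± 0.24), as was VEGFA (−2.39). Of 15 growth factor receptor genes, 6 were higher and 2 lower. EGFR rose by 0.70 ± 0.05 and TGFBR3 by 1.39 ± 0.09, and ERBB3 (−1.35 ± 0.12) and BMPR1B (−2.01 ± 0.21) were lower. Of 9 receptors for lysophospholipids and thrombin, which feed into Hippo signalling, 3 were higher and 3 lower. S1PR1 was at 0.566 to 1.93 CPM against 21.9 and 24.6 CPM (4.35 ± 0.25), and LPAR5 (−0.93 ± 0.18) and LPAR2 (−0.78 ± 0.17) were lower, opposite to LPAR1.

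Of 7 Notch genes, 2 were higher and 5 lower. The ligand gene JAG1 was at 94.7, 86.2, 91.7 and 93.4 CPM in the TRAM2 libraries and at 7.04 and 6.18 CPM in the YAP libraries (−3.79 ± 0.09), and the target HES1 was lower by 3.40 (SE 0.12 on the log2 scale). NOTCH2 was higher by 0.54 ± 0.05. Inflammatory genes were split, with 4 of 15 higher and 6 lower. PTGS2, which makes prostaglandins, was at 0.371 to 1.59 CPM against 12.7 and 10.4 CPM (3.76 ± 0.31), ICAM1 was higher by 2.82 ± 0.25, and IL1A was lower (−1.63 ± 0.26). Of 16 interferon-stimulated genes, 4 were higher and 5 lower; IFI44L (−3.83 ± 0.45) and the RNA sensor gene IFIH1 (−2.21 ± 0.20) were lower and STAT2 was higher (0.72 ± 0.11).

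Proliferation genes hardly differed. Of 21 genes of G2 and mitosis, 0 passed the call, at an adjusted p under 0.05 and the fold threshold in the edgeR test, and for 17 the interval lay within −0.5 to 0.5, against 37.6% of all genes. At an unadjusted p under 0.05, 4 were higher and 2 lower, DESeq2 called 0, and within the shared run 1 was called. MKI67 was at 1746, 1628, 1989 and 2002 CPM in the TRAM2 libraries and at 1655 and 1610 CPM in the YAP libraries (−0.17 ± 0.08), and TOP2A differed by 0.27 ± 0.07. TRAM2 B was the lowest TRAM2 library for both. Of 19 S phase genes, 1 was higher, TYMS (0.72 ± 0.05), 0 were lower in edgeR (8 at an unadjusted p under 0.05; 0 by DESeq2), and for 15 the interval was within −0.5 to 0.5. Of 12 cyclins, CDKs and CDK inhibitors, CCND1 and CDKN1A (0.54 ± 0.15, adjusted p = 0.03) were higher and CDKN1C was lower (−3.13). CDKN1A was not called within the shared run (0.38).

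Metabolic lists differed to unequal extents. Of 19 MYC and ribosome biogenesis genes, 1 was higher, ODC1 of polyamine synthesis (0.71 ± 0.05), and 2 lower, MYC itself and POLR1B (−0.77 ± 0.09). Of 20 nuclear genes of oxidative phosphorylation, 0 were higher and 3 lower in edgeR (0 and 15 at an unadjusted p under 0.05; 0 and 3 by DESeq2), among them UQCRC2 (−0.74 ± 0.05) and COX7B (−0.61 ± 0.06), and transcripts of the mitochondrial genome took 6.11% and 6.30% of counts in the YAP libraries against 8.23% to 8.90% in the TRAM2 libraries. Of 27 genes of cholesterol and fatty acid synthesis, 2 were higher and 2 lower; SREBF1 was at 44.8 to 60.7 CPM against 21.2 and 21.3 CPM (−1.33 ± 0.12), and FASN was lower by 0.58 (SE 0.08), a call lost within the shared run (−0.46). Of 25 glycolysis and hypoxia genes, 4 were higher and 4 lower, 32% called against 29.4% of all genes, with the vasodilator peptide gene ADM at 8.24 to 12.8 CPM against 87.6 and 87.2 CPM (3.11 ± 0.11). Of 19 NRF2 target and aldo-keto reductase genes, the cystine transporter SLC7A11 (2.08 ± 0.07) and TXNRD1 (1.00 ± 0.05) were higher, and 7 were lower. AKR1C3 fell from 28.2 to 37.3 CPM to 0.335 and 0 CPM, though reads of AKR1C1, AKR1C2 and AKR1C3 may be shared. The control range of AKR1C3 was 23.4 to 25.8 CPM, below the TRAM2 libraries. Of 8 retinoid genes, 0 were higher and 6 lower in edgeR (0 and 7 at an unadjusted p under 0.05; 0 and 7 by DESeq2), with ALDH1A3, which makes retinoic acid, at 222 to 238 CPM against 47.2 and 46.4 CPM (−2.28 ± 0.06). The control range of ALDH1A3 was 331 to 361 CPM, above the TRAM2 libraries.

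Markers of cell types were examined in TPM, which scales counts by transcript length and library size. Of the 8 basal mammary markers all had counts, and their summed level was 1333 to 1409 TPM in the YAP libraries and 1644 to 1854 TPM in the TRAM2 libraries; 2 were higher (KRT17, EGFR) and 4 lower, with TP63 at 2.67 to 3.5 CPM against 0.0838 and 0.154 CPM. Luminal markers summed to 5444 to 5603 TPM against 2843 to 3129 TPM, with 3 of 7 higher and 3 lower. KRT8 and GATA3 (1.91 ± 0.07) were higher, FOXA1 (−3.05 ± 0.23) and ESR1 (−1.27 ± 0.20) were lower, and PGR was at 0, so the defining luminal genes did not move together. Fibroblast markers summed to 68.3 to 72.8 TPM in the YAP libraries and 59.8 to 75.1 TPM in the TRAM2 libraries, THY1 was at 0, and only COL1A1 and FAP (0.18) passed the filter on low counts. Their summed level overlapped between the groups, and its part in the mesenchymal genes was not tested. Endothelial markers summed to 0.262 to 0.314 TPM against 2.50 to 4.64 TPM, with VWF and CLDN5 at 0 and PECAM1 lower (−5.50 ± 0.35). Of the 3 endothelial markers tested, 1 was called higher and 2 lower, so they did not move together. Leukocyte markers summed to 29.2 to 35.5 TPM against 23.5 to 31.2 TPM, of which only CD14 and CD68 passed the filter, with CD3E at 0. In bulk RNA, fewer cells with an mRNA and less of it in each cell cannot be told apart.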

How the data were processed

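Polyadenylated RNA of MCF10A populations was sequenced, and the authors trimmed the reads (cutadapt) and quantified transcripts with Salmon; their versions and the build were not given in the sources used here. Deposited files held estimated counts and TPM for each of 226030 transcripts, which were summed here to 60168 genes. Estimated counts were rounded to whole numbers. The kit named in the labels does not mark strand, whereas the study's methods name a stranded kit, so values of overlapping and antisense genes are uncertain. The labels give 4 TRAM2 and 2 YAP libraries, although the submitters' design text speaks of 3 replicates.

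Genes were tested with edgeR 4.0.16 (TMM normalisation, its filter on low counts, robust quasi-likelihood test, in R 4.3.3) on the 6 libraries, with Benjamini-Hochberg adjustment over all genes. DESeq2 1.42.0 and other settings were alternatives. Fold changes are YAP relative to TRAM2. The SE after ± was computed as the absolute log2 fold change over the square root of the test statistic F. For wide changes with few counts in 1 group this SE is too small. Among others this holds for ANKRD1, ADAMTS12, KRT4 and ADAMTS1, with 16, 15, 12 and 5 counts over the TRAM2 libraries. It also holds for UNC5B, MMP2, PECAM1, EHF, CLDN7 and TNC, with 4, 6, 6, 19, 23 and 27 counts over the YAP libraries. The script was tested on simulated data. Libraries held 12477031 to 16314438 estimated counts; intervals of ratios cover counting error only.

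Named genes were those followed in the study; the 12 protein-coding genes that rose most and the 12 that fell most without overlap at 5 CPM or more; the 6 in each direction with the largest CPM difference; up to 2 a list and direction; and 5 whose TRAM2 libraries differed most between runs. The comparison and the 39 gene lists were chosen with earlier results of these data known. Of 690 listed genes, 2 symbols had no match and are not analysed here.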

Additional observations from a re-analysis of the deposited data

Results flagged for a closer look

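In 11 of 147 named genes, 1 TRAM2 library lay apart from the other 3, by a gap to its neighbour over the whole range of the group above Dixon's critical value of 0.829. Chance gives such a gap in about 5% of groups of normally distributed values. Here 5 named genes, AQP9 among them, were picked because their TRAM2 libraries differed between runs. PSG5 and EDIL3 had 2 and 1 counts over the TRAM2 libraries. The 11 of 147 can therefore not be set against that share. TRAM2 B was the library in 9 of the 11. It was the lowest for MYC (164 CPM against 172 in the others; gap 0.946), for the epithelial factor EHF (39.1 against 42 to 42.4 CPM; 0.856), for AZGP1 (39.6 against 61.7 to 65.9 CPM; 0.839) and for the BMP receptor BMPR1B (6.07 against 8.26 to 8.39 CPM; 0.945). It was the highest for JUNB (90.3 against 68.9 to 71.7 CPM; 0.871), FAT4 (7.17 against 5.31 to 5.59 CPM; 0.845), ANKRD1 (0.482 against 0.181 to 0.223 CPM; 0.861), the water and glycerol channel AQP9 (1.38 against 0.0743 to 0.241 CPM; 0.872) and PSG5 (0.138 against 0 CPM; 1.000). TRAM2 A was the lowest for LPAR2 (6.98 against 8.24 to 8.34 CPM; 0.923), and TRAM2 D was the only TRAM2 library with a count of EDIL3 (0.0629 CPM; 1.000). For all 11 genes both YAP libraries lay outside the range of the TRAM2 libraries, as for 4508 of the 4529 called genes. Most named genes were chosen because they were called, so this is no separate finding.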

How the results depend on the processing

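In every alternative fit run with the fold threshold at 0.5, the YAP1 and FSTL1 differences kept their direction and their call; YAP1 (0.86) lies under a threshold of 1. With the fold threshold at a log2 fold change of 1, 1202 genes were higher and 1248 lower. The TRAM2 difference, which did not pass over the 6 libraries, passed within the shared run alone (−1.03) and without TRAM2 replicate C (−1.03). In edgeR it also passed with a replicate block over the 6 libraries (−1.0, adjusted p = 0.0204). So it did with a replicate block within the shared run (−1.0, adjusted p = 0.0135). With the run as a covariate it did not pass (TRAM2 difference −1.036, adjusted p = 0.148). The YAP group has only libraries A and B of the shared run. Fits with a block or the covariate therefore rest on TRAM2 A and B, as the shared run alone does. They are not separate checks, and why their adjusted p differed was not tested. Leaving out each library in turn gave −1.03 to −0.58 for TRAM2, 0.82 to 0.89 for YAP1, 2.32 to 2.43 for FSTL1, 2084 to 2429 genes called higher in YAP, 1926 to 2244 genes called lower in YAP and 285 to 306 list members called, against 303 in all 6. DESeq2 called 2143 higher and 1937 lower (20.8%), effective length offsets 1942 and 1864, and no filter 2523 and 2488. The letters do not pair the libraries (correlations of deviations between −0.054 and 0.054), and the block gave 2086 higher and 1992 lower. KIF18A, not called, changed sign to −0.037 with TRAM2 C and D alone against YAP. Among the called named genes other than YAP1 and FSTL1, 36 lost the call under at least 1 alternative, 32 of them under the fold threshold of 1. ASNS, CDKN1A, FASN, BNIP3 and HES4 lost it within the shared run. Under a left-out library 10 lost it, among them CDKN1A, IVL, KRT17, MVD, MT-CO2, NOTCH2, ITGB4, ASNS and HES4. Depth limits genes with few counts, for which only bounds or counting intervals are given.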

Other observations

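Several gene families outside the lists were examined after their values were seen, and are given as descriptions, beside 15% of all genes called higher and 14.4% lower. The pregnancy-specific glycoprotein genes lie together on chromosome 19 and are normally expressed by the placenta. The 8 that were tested had 0 to 39 counts each over the TRAM2 libraries, so they passed the filter on low counts through the YAP libraries and their direction is no separate finding. PSG4 was at 0.181 to 1.04 CPM in the TRAM2 libraries and at 111 and 117 CPM in the YAP libraries (7.44 ± 0.19). Because the family's sequences are near-identical, reads may be split between members. Of the homeobox genes that set position along the body axis, 6 of 9 HOXA genes were lower and 1 was higher, while 4 of 5 HOXB and 4 of 7 HOXC genes were higher. All 3 tested subunits of the epithelial sodium channel (SCNN1) were lower, with a median of −5.17, as were 5 of 7 sulfotransferase (SULT) genes (−2.34). Among these, SULT1E1, SULT2B1, SULT1A3 and SCNN1B had 0, 1, 10 and 10 counts over the YAP libraries. They passed the filter on low counts through the TRAM2 libraries, so their direction is no separate finding. Of 13 tested KLF factors, 9 were lower and 1 was higher. Higher families were the IGF-binding proteins (4 of 5, median 2.60), the type IV collagen chains (5 of 6, 1.81), the TCEAL genes (5 of 5, 1.04) and the carbohydrate sulfotransferases (6 of 8, with 1 lower). HOXB7, HOXC4, IGFBP7, CHST2, COL4A3 and KLF2 had 7, 19, 27, 21, 4 and 26 counts over the TRAM2 libraries. These genes passed the filter through the YAP libraries, so their direction is no separate finding either. Of the collagen chains, COL4A3 had 4 counts in the TRAM2 libraries and 577 in the YAP libraries, and COL4A4 had 45 against 2097.

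Some called genes differed between TRAM2 libraries A, B and C, D, which carry different run numbers. The noncoding RNA MEG3 was at 6.91, 5.10, 2.59 and 3.02 CPM in TRAM2 A to D, against 55 and 58.9 CPM in the YAP libraries (3.72 ± 0.29), and ABAT was at 1.78, 4.55, 1.09 and 1.63 CPM against 12.4 and 13.2 CPM (2.51 ± 0.46).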
